A study of Mus musculus with 12 samples.

Results

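The primary, or azurophil, granule genes described here are 8 genes given by name out of the 23479 in the table: Mpo, Elane, Prtn3, Ctsg, Prss57, Ms4a3, Ctsc and Serpinb1a. All 8 were found, and all 8 passed the minimum for testing, a mean of at least 10 normalized counts over the 12 libraries. Ctsg passed through the lymphodepleted M-MDSC libraries, since its mean over the other 9 was 7.8. The study sorted 2 kinds of myeloid-derived suppressor cells from the spleens of C57BL/6 mice that carried established B16 melanomas, monocytic cells (M-MDSC) and polymorphonuclear cells (PMN-MDSC). Untreated mice (Ctrl) also carried the tumour, so no group is free of it, and lymphodepleted mice (LD) had received cyclophosphamide and fludarabine 7 days before collection. Each of the 4 groups holds 3 libraries of ribosome-depleted total RNA, numbered 001 to 003. The labels give 3 mice per arm but do not tie a library to a mouse, do not say whether both populations of 1 number came from the same animal, and give neither age nor sex, so the p-values below measure only the spread between these libraries, which may be technical.

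Primary granules are the first granules to form in the neutrophil lineage, and their cargo is transcribed at the promyelocyte stage and then switched off as the cell matures. Monocyte precursors transcribe part of the same cargo. Myeloperoxidase makes hypochlorous acid, the neutrophil serine proteases degrade microbes and matrix, cathepsin C cuts the propeptide that keeps those proteases inactive, and the cytosolic serpin B1 blocks them when they leave the granule. Ms4a3 and Serpinb1a are not granule cargo: the first is a membrane protein of the progenitors that make the granules and the second acts in the cytosol. In the mature neutrophil the proteins persist while the messenger RNA is largely gone, so a transcript level does not give the stored protein.

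The 12 libraries held 8906045 to 16242926 reads. The summed markers of the sorted populations were as labelled. The 15 monocyte markers summed to between 96126.4 and 151881.6 normalized counts in M-MDSC and between 11942.0 and 16544.1 in PMN-MDSC. The 14 neutrophil markers in the table, which lacks Ly6g, summed to between 9003.2 and 90063.7 and between 518216.5 and 961324.3. All 14 were higher in PMN-MDSC in both treatments (limma), against 36.8% of all genes tested in untreated and 36.1% in LD mice. Of 14 monocyte markers tested, 13 were higher in M-MDSC in untreated mice and 12 in LD mice. The share of all genes tested that were higher in M-MDSC was 38.8% in each. Cd14 was higher in PMN-MDSC in both, and Ly6c2 did not pass in LD mice. Library 001 of the LD group stood apart in both populations, with the highest level of Mpo, Elane, Prtn3, Ctsg, Ms4a3, Ctsc and Serpinb1a among the 3 LD libraries of its population. Values without it are given beside the results below that it moves most.

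Promoter sequences of 6 of the 8 genes were matched by symbol in RefSeq (GRCm38.p6), those of Mpo, Elane, Prtn3, Ctsg, Ms4a3 and Ctsc. Those of the peroxidase and of 3 serine proteases are shown, since the comparisons below turn on them. Each run is 300 bases, from 250 before to 50 after the gene's start, on the gene's own strand. Capitals mark, on either strand, the letters GAGGAA of the PU.1 motif, AACNG of the Myb motif, TGNGGT of the Runx motif and TTNCNNAA of the C/EBP motif.
Mpo, chr11:87793534-87793833, plus strand: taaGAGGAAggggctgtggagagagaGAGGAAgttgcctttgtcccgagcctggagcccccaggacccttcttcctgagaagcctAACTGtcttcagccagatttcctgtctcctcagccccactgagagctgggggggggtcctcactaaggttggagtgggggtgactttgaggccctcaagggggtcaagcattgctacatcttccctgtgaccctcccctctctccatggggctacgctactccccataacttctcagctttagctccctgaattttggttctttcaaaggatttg
Elane, chr10:79886062-79886361, plus strand: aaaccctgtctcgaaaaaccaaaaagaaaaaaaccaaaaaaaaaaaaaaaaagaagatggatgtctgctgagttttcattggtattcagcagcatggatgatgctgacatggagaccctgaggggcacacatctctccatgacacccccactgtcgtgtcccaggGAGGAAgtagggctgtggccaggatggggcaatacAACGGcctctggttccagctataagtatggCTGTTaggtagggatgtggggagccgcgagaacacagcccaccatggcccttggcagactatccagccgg
Prtn3, chr10:79879417-79879716, plus strand: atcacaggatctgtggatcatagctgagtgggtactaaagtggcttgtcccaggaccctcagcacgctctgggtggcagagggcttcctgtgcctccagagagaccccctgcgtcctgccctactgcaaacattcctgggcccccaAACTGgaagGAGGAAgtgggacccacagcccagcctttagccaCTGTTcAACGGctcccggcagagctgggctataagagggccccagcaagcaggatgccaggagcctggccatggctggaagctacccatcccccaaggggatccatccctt
Ctsg, chr14:56102525-56102824, minus strand: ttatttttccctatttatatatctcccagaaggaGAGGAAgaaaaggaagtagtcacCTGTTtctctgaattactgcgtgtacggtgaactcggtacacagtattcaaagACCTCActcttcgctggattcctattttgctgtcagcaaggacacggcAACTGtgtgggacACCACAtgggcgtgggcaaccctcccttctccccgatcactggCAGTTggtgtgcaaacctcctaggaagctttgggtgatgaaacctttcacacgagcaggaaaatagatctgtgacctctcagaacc
Positions count from the gene's start. The PU.1 letters lay at -247 and -224 in Mpo, -85 in Elane, -95 in Prtn3 and -216 in Ctsg. They were found in 6 of the 6 matched promoters and in 28.3% of 32851 mouse promoters of the same length. The Myb letters were found in 5 of the 6, all but Ms4a3, and in 80.3% of all promoters. The Runx letters were found in 2 of the 6, those of Ctsg and Ctsc, against 45.8% of all. The C/EBP letters were found in 1 of the 6, Ms4a3, where a copy adjoins the PU.1 letters without sharing a base, against 40.7% of all. A match of letters is a description of the window and not a binding site.

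The genes lie at several places in the genome (RefSeq, GRCm38, the build mm10 named in the submitters' processing notes). Prtn3 (chr10:79879667-79883174) and Elane (chr10:79886312-79888216) are neighbours on the plus strand with 3137 bases between them. The next gene on that side, Cfd, which encodes complement factor D, was at 1.6 normalized counts or less in every library. Prss57 (chr10:79781474-79794684, minus strand) lies in the same part of the chromosome and overlaps Fstl3 and Palm on the opposite strand. The strand setting of the counting is not given in the sources used here, so reads of Prss57 and of these partners may not have been told apart. In the GENCODE annotation, exons of Mpo overlap Gm11505 and exons of Prtn3 overlap Plppr3, each on the opposite strand, so the same may hold for them. Mpo is at chr11:87793784-87804412, Ctsg at chr14:56099885-56102574, Ms4a3 at chr19:11629499-11640851, Ctsc at chr7:88278024-88315861 and Serpinb1a at chr13:32842092-32853206.

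**Figure D1:**
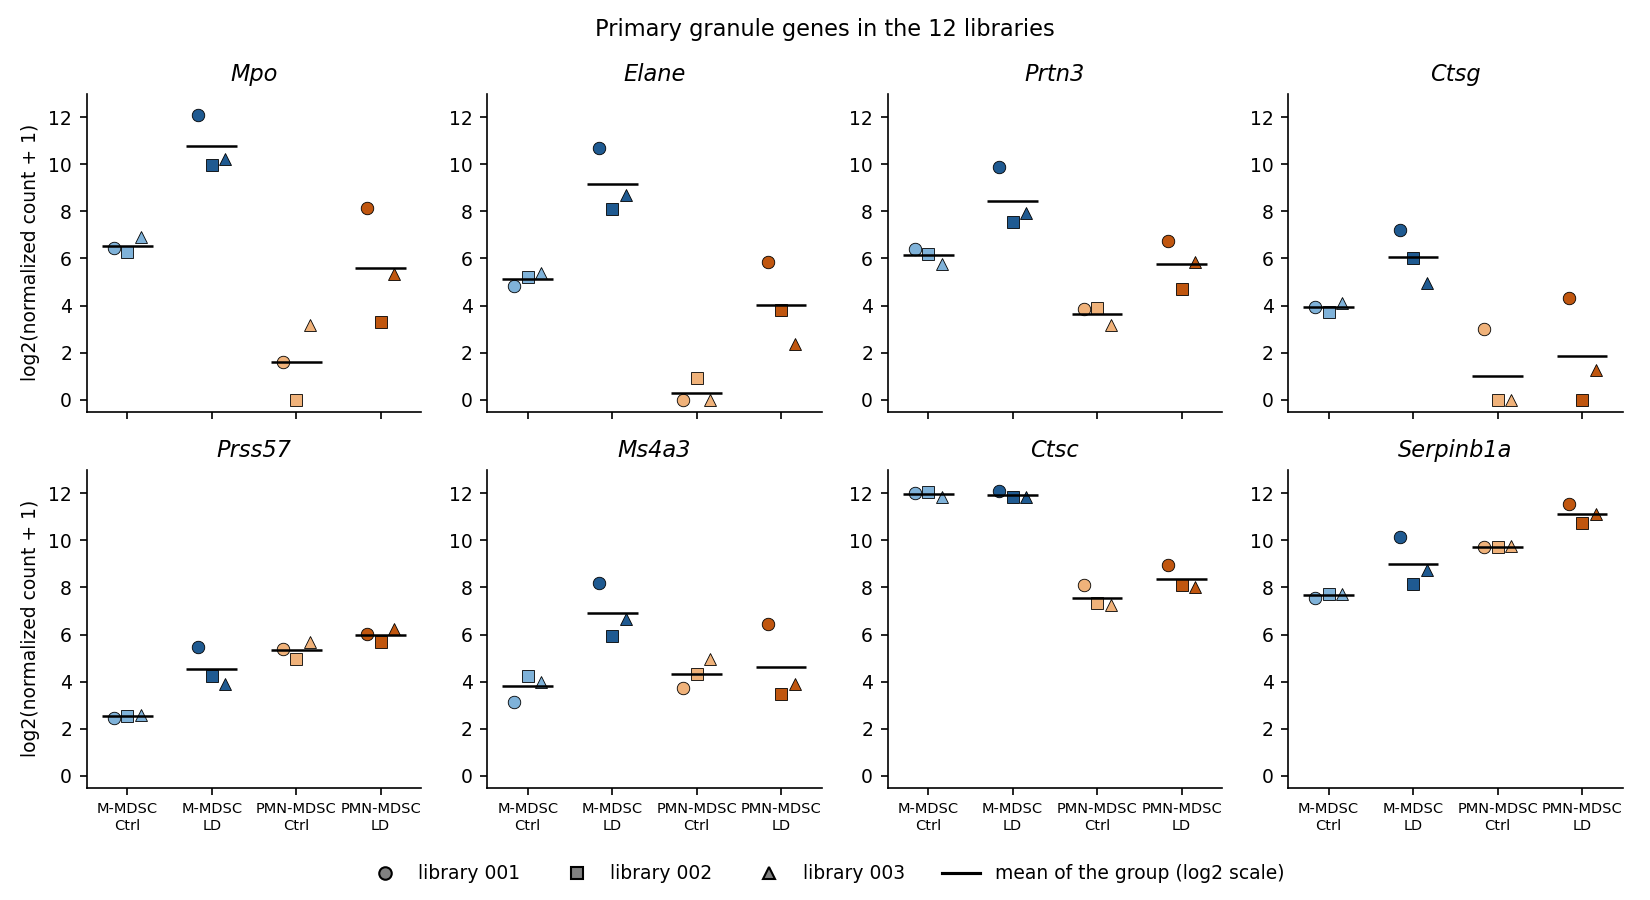
Level of each of the 8 genes in each of the 12 libraries, as log2(normalized count + 1) on the vertical axis; the 4 groups are on the horizontal axis, the symbol gives the library number and the bar is the mean of the 3 libraries. Mpo, Elane and Prtn3 lie above the untreated libraries in every LD library of both populations, while the M-MDSC libraries of Ctsc lie together with and without treatment.

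The first comparison asked what lymphodepletion changed in M-MDSC. Transcripts of the peroxidase and of most granule proteases were many times more abundant in M-MDSC from lymphodepleted mice, while the protease-activating cathepsin differed by less than the spread between libraries. Of the 8 genes, 5 rose (Mpo, Elane, Prtn3, Prss57 and Ms4a3) by limma with Benjamini-Hochberg adjustment over the 11122 genes tested, against 2.54% of all genes tested that rose and 0.468% that fell. In 7 of the 8, all but Ctsc, every LD library lay above every untreated library, against 10.6% of all genes. Ctsg, among these 7, passed the minimum on the mean only through the LD M-MDSC libraries, the high group here. Its separation and its part in the median below add no support. The median log2 difference over the 8 was 2.23, and over all genes tested -0.04. In bulk RNA, fewer or more cells that carry a transcript and less or more of it per cell cannot be told apart.

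Mpo, the heme peroxidase and most abundant primary granule protein, was at 85.0, 75.6 and 120.0 normalized counts in the untreated M-MDSC libraries and at 4385.6, 991.8 and 1195.0 in the LD libraries. The groups were far apart, and library LD 001 held several times the level of the other LD libraries. The log2 difference was 4.22 ± 0.99 (SE, n = 3 per group; limma adjusted p = 0.0306), an 18.7-fold difference.

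Elane, neutrophil elastase, rose from 27.2, 36.4 and 40.4 to 1657.5, 269.2 and 407.9 normalized counts. The groups did not overlap and the order of the LD libraries was that of Mpo. Its log2 difference was 4.01 ± 0.78 (SE, n = 3 per group; limma adjusted p = 0.0105), or 16.1-fold. Its chromosomal neighbour Prtn3, which encodes proteinase 3, was at 84.3, 71.8 and 53.9 in untreated and at 942.5, 185.1 and 243.3 in LD libraries. Its log2 difference of 2.33 ± 0.57 (SE, n = 3 per group; limma adjusted p = 0.0403) is a 5.01-fold difference.

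Ctsg, cathepsin G, was at 14.3, 12.4 and 16.3 in untreated and at 144.9, 64.5 and 30.5 in LD libraries. All 3 LD libraries lay above the untreated ones, but the difference did not pass (log2 2.14 ± 1.05, SE, n = 3 per group; limma adjusted p = 0.414). Prss57, a granule protease of lower abundance (neutrophil serine protease 4), rose from 4.5, 4.8 and 5.0 to 43.5, 17.8 and 13.8, which in untreated libraries is 5 to 9 reads. Its log2 difference was 2.0 ± 0.46 (SE, n = 3 per group; limma adjusted p = 0.0295). Its opposite-strand neighbour Palm encodes the membrane protein paralemmin. Over the same M-MDSC libraries Palm ran from 848.7 to 1073.3 in untreated and from 933.8 to 1879.1 in LD. The part of Palm in the Prss57 difference was not tested.

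Ms4a3, a membrane protein of the tetraspanning MS4A family whose expression marks granulocyte and monocyte progenitors, rose from 7.8, 18.2 and 15.1 to 289.0, 61.1 and 99.5. The log2 difference was 3.13 ± 0.73 (SE, n = 3 per group; limma adjusted p = 0.0312), or 8.73-fold.

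The processing enzyme and the inhibitor did not pass. Ctsc, cathepsin C, was at 4108.9, 4289.6 and 3659.2 in untreated and at 4366.8, 3703.8 and 3667.7 in LD libraries, which overlap. The log2 difference was -0.04 ± 0.23 (SE, n = 3 per group; limma adjusted p = 0.988), with a 95% interval from -0.54 to 0.46. Serpinb1a, the inhibitor of elastase, proteinase 3 and cathepsin G, was at 184.8, 213.4 and 209.2 in untreated and at 1115.6, 282.8 and 430.5 in LD libraries. The groups did not overlap, and the log2 difference of 1.34 ± 0.35 (SE, n = 3 per group; limma adjusted p = 0.0517) missed the threshold. It passed in edgeR (adjusted p = 0.0267) and DESeq2 (adjusted p = 0.0142).

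Serpinb1a also passed without M-MDSC LD 002 (log2 1.77, adjusted p = 0.00409) and without PMN-MDSC LD 001 (1.34, 0.0329). For the 5 called genes, leaving out 1 library at a time ended many of the calls without changing a direction. Without M-MDSC LD 001 none of the 8 passed in limma: the log2 difference was 3.55 for Mpo (adjusted p = 0.126), 3.24 for Elane (0.057), 1.61 for Prtn3 (0.157), 1.53 for Prss57 (0.139) and 2.5 for Ms4a3 (0.139). Without M-MDSC Ctrl 001 none passed either, with adjusted p = 0.105 for Mpo, 0.0525 for Elane, 0.0955 for Prtn3, 0.0951 for Prss57 and 0.135 for Ms4a3. Elane alone remained past the threshold without Ctrl 002 or Ctrl 003, where adjusted p was 0.102 and 0.0769 for Mpo, 0.107 and 0.152 for Prtn3, 0.0754 and 0.0808 for Prss57 and 0.0614 and 0.0808 for Ms4a3. Without LD 003 it was 0.0694 for Mpo, 0.0682 for Prtn3 and 0.0782 for Ms4a3. Prtn3 also lost its call without PMN-MDSC Ctrl 001 (0.0604), Ctrl 002 (0.0586), Ctrl 003 (0.0527) or LD 003 (0.053), and Ms4a3 without PMN-MDSC Ctrl 002 (0.0501), libraries that enter only through the pooled spread. Without both LD libraries numbered 001, an alternative chosen after seeing the data, 5 of the 8 passed, now with Serpinb1a (log2 0.78, adjusted p = 0.0166) and without Prss57 (0.104). The others were then Mpo (3.55, 0.016), Elane (3.24, 0.00747), Prtn3 (1.61, 0.0498) and Ms4a3 (2.5, 0.0184). With no minimum on the mean, Mpo (adjusted p = 0.0561), Prtn3 (0.0707), Prss57 (0.084) and Ms4a3 (0.0629) did not pass, nor did Prtn3 (0.0526) and Prss57 (0.0725) with M-MDSC fitted alone, or Mpo with 0.5 added before the logarithm (0.0514).

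**Figure D2:**
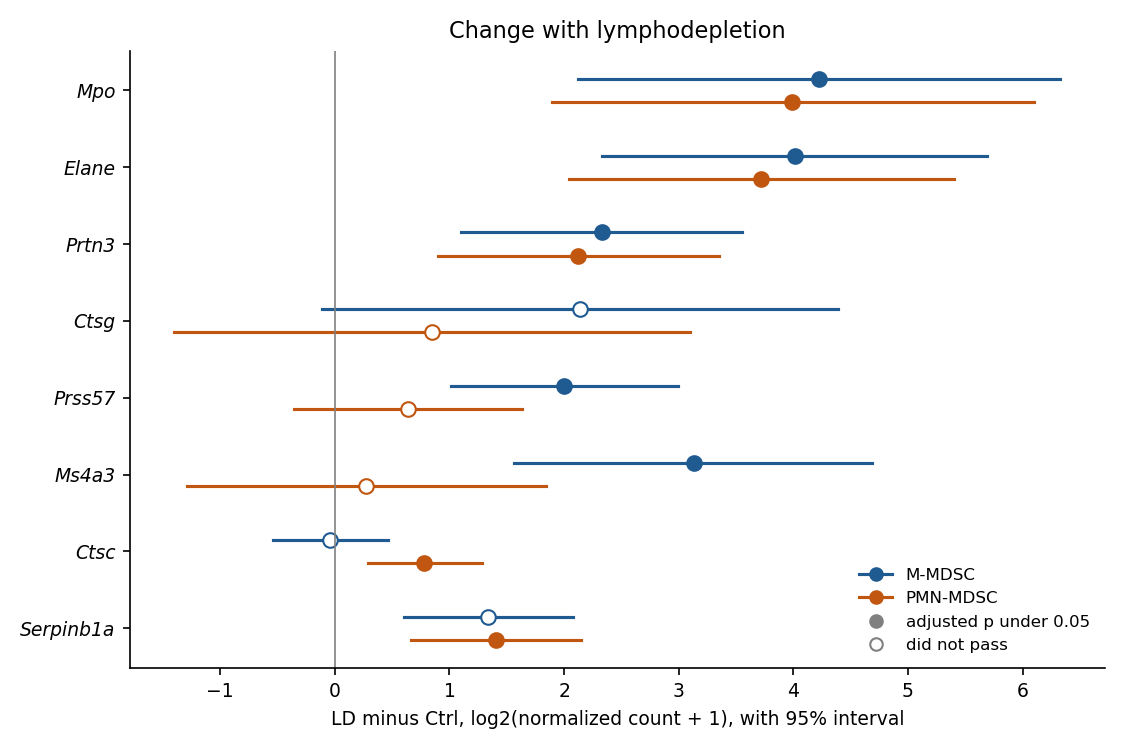
Change with lymphodepletion of the 8 genes in M-MDSC (blue) and PMN-MDSC (orange), as the difference of log2(normalized count + 1) on the horizontal axis; points are limma estimates over 3 libraries per group, lines their 95% intervals, and filled points passed an adjusted p of 0.05. The intervals of Mpo, Elane, Prtn3 and Serpinb1a lie above 0 in both populations. Prss57 and Ms4a3 are filled in M-MDSC only, and Ctsc and Serpinb1a in PMN-MDSC only. Serpinb1a narrowly missed the threshold in M-MDSC (limma adjusted p = 0.0517).

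The second comparison asked the same of PMN-MDSC. Again 5 of the 8 genes rose, here Mpo, Elane, Prtn3, Ctsc and Serpinb1a, against 7.17% of all genes tested that rose and 8.51% that fell (limma). In 4 of the 8, Mpo, Elane, Prtn3 and Serpinb1a, every LD library lay above every untreated library, against 14.1% of all genes. The median log2 difference was 1.13 over the 8 and -0.05 over all genes tested. Apart from Serpinb1a and Ctsc, these values rest on few reads.

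Mpo was at 2.0, 0.0 and 8.0 normalized counts in untreated PMN-MDSC and at 278.6, 8.8 and 39.3 in LD, which is 7 reads in all against 240. The highest untreated library lay just below the lowest LD library. The 0 in Ctrl 002 allows up to 2.64 normalized counts, the value of 3 reads there. The log2 difference was 3.99 ± 0.99 (SE, n = 3 per group; limma adjusted p = 0.015). The ratio of the reads, scaled by the size factors of the libraries, was 44.1 (exact 95% interval for counting error only, 21.1 to 111.0). Because so few reads lay behind it, the limma value moved with the number added before the logarithm, to 2.49 with 8 (adjusted p = 0.0328), and edgeR gave 5.33 (adjusted p = 0.026). It was 3.2 without Ctrl 002 (adjusted p = 0.0672), 4.78 without Ctrl 003 (0.017), 2.72 without LD 001 (0.0336) and 5.14 without LD 002 (0.00471).

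Elane had 1 read in the 3 untreated PMN-MDSC libraries together (0.0, 0.9 and 0.0 normalized counts) and 54 reads in the LD libraries (56.8, 13.2 and 4.2). The zeros of Ctrl 001 and Ctrl 003 allow up to 3.06 and 4.79 normalized counts, so the lowest LD library is not clear of that limit. The log2 difference was 3.72 ± 0.78 (SE, n = 3 per group; limma adjusted p = 0.00653), and the ratio 69.5 had a counting interval from 12 to 2800. With 8 added before the logarithm the difference was 1.63 and did not pass (adjusted p = 0.0718), while edgeR gave 5.68 (adjusted p = 0.045). It was 2.8 without LD 001 (adjusted p = 0.0144) and 4.54 without LD 003 (0.00346).

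Prtn3 rose from 13.3, 14.1 and 8.0 to 106.9, 25.0 and 56.1 normalized counts, 34 reads against 136. The groups were apart in all libraries, and the log2 difference was 2.12 ± 0.57 (SE, n = 3 per group; limma adjusted p = 0.0233). The call was lost without Ctrl 003 (1.89, adjusted p = 0.0925), LD 001 (1.63, 0.0643) or LD 003 (2.09, 0.0597).

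Ctsg was at 7.1, 0.0 and 0.0 in untreated and 18.9, 0.0 and 1.4 in LD libraries, so a difference was not detectable at this depth (log2 0.85 ± 1.05, SE, n = 3 per group; limma adjusted p = 0.622). Without LD 001 it was -0.38 (adjusted p = 0.819). Prss57 was at 40.8, 29.9 and 51.1 against 64.9, 50 and 74.3, with 1 LD library inside the untreated range (log2 0.64, 95% interval -0.36 to 1.63; limma adjusted p = 0.378). Ms4a3 was at 12.2, 19.3 and 30.3 against 86.6, 10.3 and 14. Only LD 001 was above the untreated libraries, and the log2 difference was 0.27 (95% interval -1.29 to 1.84; limma adjusted p = 0.837). Without LD 001 it was -0.64 (adjusted p = 0.504), and without Ctrl 001 -0.04.

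Ctsc was at 277.5, 161.7 and 151.6 in untreated and 491.0, 278.0 and 256.6 in LD PMN-MDSC. The lowest LD library lay below the highest untreated one, and the log2 difference was 0.78 ± 0.23 (SE, n = 3 per group; limma adjusted p = 0.0348). It did not pass in edgeR (adjusted p = 0.0559), with no minimum on the mean (0.0616), with PMN-MDSC fitted alone (0.0907), or without Ctrl 002 (0.122), Ctrl 003 (0.151), LD 001 (0.0953) or both LD libraries numbered 001 (0.0862).

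Serpinb1a, the highest of the 8 per kilobase of transcript in PMN-MDSC, rose from 829.3, 828.8 and 877.9 to 3023.0, 1687.1 and 2203.0 normalized counts. The untreated libraries were close together and every LD library lay far above them. The log2 difference was 1.41 ± 0.35 (SE, n = 3 per group; limma adjusted p = 0.015), or 2.65-fold, and it passed in 23 of 23 alternatives. The paralogue Serpinb1c was listed at 0 in every library and Serpinb1b at 2.8 or less; how the counting treated reads shared between these copies is not given in the sources used here.

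The third comparison asked whether the LD change differed between the populations. None of the 8 passed (limma, against 2.25% of all genes tested), 2 had an unadjusted p under 0.05, and neither edgeR nor DESeq2 called any. The 2 were Ms4a3, with a difference of the LD changes of log2 2.85 (95% interval 0.64 to 5.07; adjusted p = 0.164), and Ctsc, with -0.82 (95% interval -1.53 to -0.12; adjusted p = 0.2). Ms4a3 passed without PMN-MDSC LD 001 (3.77, adjusted p = 0.0189) and without both LD libraries numbered 001 (3.15, 0.0282). For Mpo the difference of the changes was 0.23 with a 95% interval from -2.75 to 3.21, for Elane 0.29 from -2.08 to 2.67 and for Serpinb1a -0.06 from -1.11 to 0.99, so changes that differ several-fold are inside the intervals of the first 2.

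The last comparisons set the populations against each other. In untreated mice M-MDSC held more of 5 of them (Mpo, Elane, Prtn3, Ctsg and Ctsc), against 38.8% of all genes tested, and 2, Prss57 and Serpinb1a, were higher in PMN-MDSC, against 36.8% (limma). In LD mice 6 were higher in M-MDSC, now with Ms4a3, against 38.8%; of these, Ctsg passed the minimum on the mean only through the LD M-MDSC libraries, the high group of this test, so its call adds no support. In LD mice the same 2 were higher in PMN-MDSC, against 36.1%. Ctsc showed the clearest separation, at log2 4.4 ± 0.23 in untreated (SE, n = 3 per group; limma adjusted p = 3.8e-10) and 3.57 ± 0.23 in LD libraries (3.7e-09). Mpo was higher in M-MDSC by log2 4.94 ± 0.99 in untreated (SE, n = 3 per group; limma adjusted p = 3.7e-04) and by 5.17 ± 0.99 in LD (2.5e-04). The untreated PMN-MDSC side of that comparison is 7 reads, and the value was 4.15 without PMN-MDSC Ctrl 002 and 5.73 without Ctrl 003. In LD it was 4.5 without M-MDSC LD 001, 6.45 without PMN-MDSC LD 001 and 4.03 without PMN-MDSC LD 002. Elane was higher in M-MDSC by 4.83 in untreated and by 5.13 in LD, the latter ranging from 4.31 without PMN-MDSC LD 003 to 6.04 without PMN-MDSC LD 001, with 4.35 without M-MDSC LD 001. Prtn3 was higher by 2.49 in untreated and 2.69 in LD (1.97 without M-MDSC LD 001).

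Ctsg was higher in M-MDSC by log2 2.92 in untreated (limma adjusted p = 0.0206), which is 64 reads against 7. That call was lost in edgeR (0.0624) and without M-MDSC Ctrl 003 (0.0532), PMN-MDSC Ctrl 002 (0.0779) or PMN-MDSC Ctrl 003 (0.0785), and without PMN-MDSC Ctrl 001 the difference was 3.93. In LD libraries it was 4.21 (adjusted p = 0.00218), 5.44 without PMN-MDSC LD 001 and 3.28 without PMN-MDSC LD 002. Serpinb1a was lower in M-MDSC by a log2 difference of -2.06 in untreated (adjusted p = 8.3e-05) and -2.12 in LD libraries (6.1e-05). Prss57 was lower in M-MDSC by -2.81 in untreated (adjusted p = 6.8e-05) and -1.45 in LD (0.011), the latter lost without M-MDSC LD 003 (-1.13, 0.0554). Palm, which lies on the other strand at that place, was also higher in PMN-MDSC, at 2092.6 to 5756.4 against 848.7 to 1879.1, and its part in the Prss57 value was not tested. Ms4a3 did not differ beyond its spread in untreated libraries (-0.54, 95% interval -2.11 to 1.02). In LD it was higher in M-MDSC by 2.31 (adjusted p = 0.0104), with overlapping libraries, and the call was lost without M-MDSC LD 001 (1.68, 0.0622) or PMN-MDSC LD 002 (1.75, 0.0537) and was 3.23 without PMN-MDSC LD 001.

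**Figure D3:**
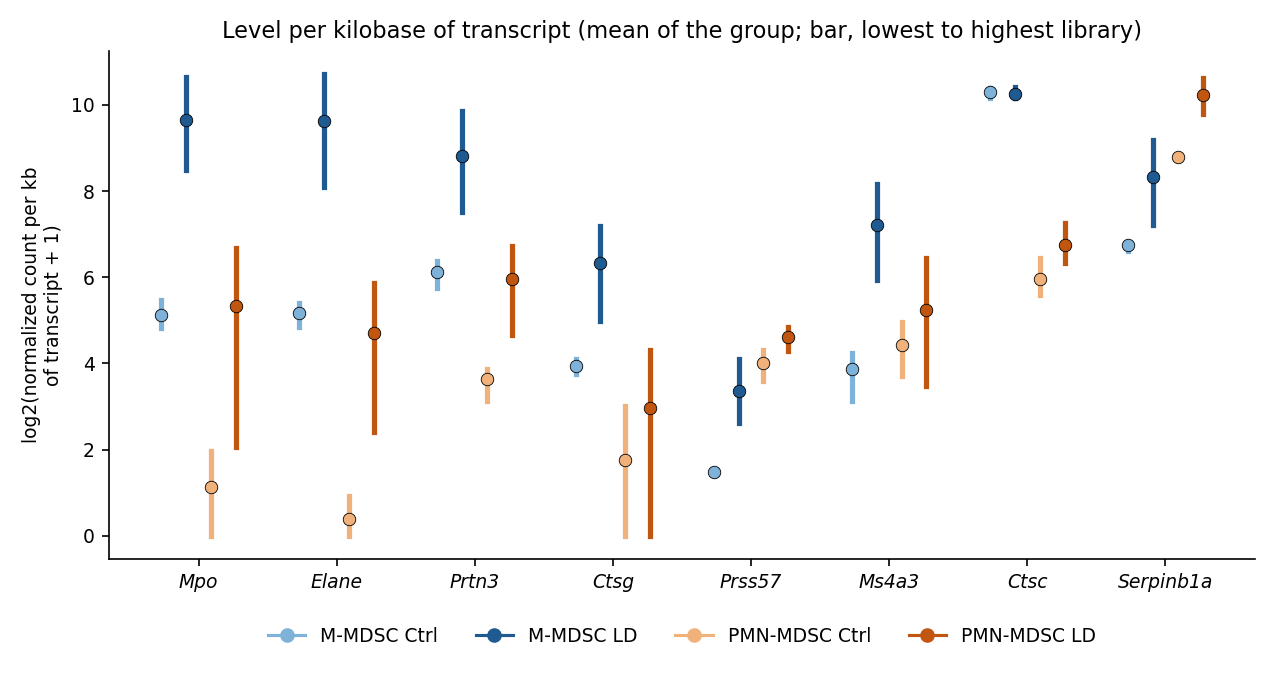
Level of each gene per kilobase of its longest GENCODE transcript matched to RefSeq, as log2(normalized count per kb + 1) on the vertical axis. Points are group means over 3 libraries and bars run from the lowest to the highest library. Ctsc is the highest of the 8 in both M-MDSC groups and Serpinb1a in both PMN-MDSC groups.

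Levels of different genes were compared per kilobase of transcript. In untreated M-MDSC, Ctsc led with 1248.2 normalized counts per kilobase ± 100.8 (SD, n = 3), followed by Serpinb1a at 105.6 ± 8.0, Prtn3 at 68.3 ± 14.9, Elane at 35.2 ± 6.8, Mpo at 34.0 ± 8.5, Ctsg at 14.3 ± 1.9, Ms4a3 at 13.6 ± 5.3 and Prss57 at 1.8 ± 0.1. Elane and Mpo lay within each other's spread, as did Ctsg and Ms4a3. In LD M-MDSC, Ctsc was at 1215.1 ± 122.2, Mpo at 796.7 ± 692.2, Elane at 790.8 ± 777.1, Prtn3 at 445.8 ± 411.2, Serpinb1a at 317.8 ± 231.7, Ms4a3 at 148.4 ± 120.8, Ctsg at 79.8 ± 58.6 and Prss57 at 9.3 ± 6.0. Neighbours from Mpo to Ctsg overlapped in their ranges, since the LD libraries differed so widely. In LD 001 alone, Mpo reached 1594.8 and Elane 1684.4 per kilobase, above the highest value of Ctsc in that group, 1356.1.

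In untreated PMN-MDSC the order was Serpinb1a (440.8 ± 14.7 per kilobase, SD, n = 3), Ctsc (61.2 ± 21.7), Ms4a3 (20.4 ± 9.0), Prss57 (15.1 ± 3.9), Prtn3 (11.5 ± 3.2), Ctsg (2.4 ± 4.1), Mpo (1.2 ± 1.5) and Elane (0.3 ± 0.5). The first pair of neighbours was far apart, and those from Ms4a3 to Prtn3 and from Ctsg to Elane overlapped. In LD PMN-MDSC, Serpinb1a was at 1201.4 ± 351.2 and Ctsc at 106.2 ± 40.2. Prtn3, at 61.1 ± 40.3, Mpo, at 39.6 ± 53.7, Ms4a3, at 36.6 ± 42.6, Elane, at 25.2 ± 28.6, Prss57, at 23.4 ± 4.6, and Ctsg, at 6.8 ± 10.5, followed with overlapping ranges.

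The balance between the proteases and their inhibitor was taken as a ratio. The summed normalized count of Elane, Prtn3 and Ctsg over that of Serpinb1a was 0.681, 0.565 and 0.528 in untreated M-MDSC and 2.46, 1.835 and 1.584 in LD M-MDSC. The groups did not overlap, with means of 0.591 ± 0.08 and 1.96 ± 0.451 (SD, n = 3). In PMN-MDSC it was 0.025, 0.018 and 0.009 in untreated and 0.06, 0.023 and 0.028 in LD libraries, which overlap. This ratio is of transcripts and is not scaled to length, so it is read between groups only, and it carries no test.

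**Figure D4:**
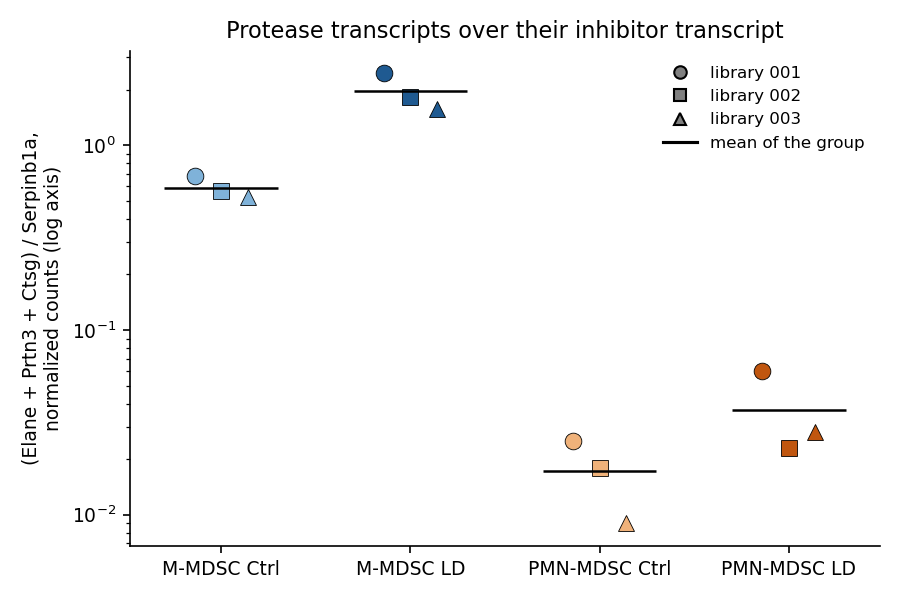
Ratio of the summed normalized counts of Elane, Prtn3 and Ctsg to that of Serpinb1a in each library, on a log axis, by group; symbols give the library number and bars the mean of 3 libraries. The M-MDSC ratios run from 0.528 to 2.46 and the PMN-MDSC ratios from 0.009 to 0.06.

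Proportions among the granule transcripts were compared in the same way. Prtn3 over Elane was 3.1, 1.97 and 1.33 in untreated M-MDSC and 0.57, 0.69 and 0.6 in LD M-MDSC, a pattern chosen after its values were seen and given without a test. Mpo over Elane was 3.12, 2.08 and 2.97 against 2.65, 3.68 and 2.93, which overlap. The summed protease count rose from between 110.5 and 125.8 to between 518.8 and 2744.8 while Ctsc stayed level, so Ctsc over the protease sum was 32.66 to 35.58 in untreated and 1.59 to 7.14 in LD M-MDSC.

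The LD libraries of M-MDSC were not alike. Over the untreated mean, Mpo was 46.9-fold in LD 001, 10.6-fold in LD 002 and 12.8-fold in LD 003. Elane was 47.8-, 7.77- and 11.8-fold, Prtn3 13.5-, 2.65- and 3.48-fold, Ms4a3 21.1-, 4.46- and 7.26-fold and Serpinb1a 5.51-, 1.4- and 2.13-fold, in the same order of libraries. Ctsg (10.1-, 4.5- and 2.13-fold) and Prss57 (9.07-, 3.72- and 2.88-fold) had LD 002 above LD 003. The summed neutrophil markers moved with them, at 8.96-, 2.1- and 4.01-fold, as did the cell division genes, at 8.43-, 2.67- and 3.39-fold, while the monocyte markers were at 0.688-, 0.841- and 0.78-fold.

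The neutrophil marker sum was 9003.2 to 10649.0 in untreated and 21122.4 to 90063.7 in LD M-MDSC. Of the 14 tested markers 8 rose, against 2.54% of all genes tested, Ltf (log2 3.56), Camp (3.52) and Ngp (3.32) first, while Mmp8 fell. Without LD 001, 7 rose and 1 fell. With all libraries 5 of the 14 did not pass, among them Csf3r, the receptor for G-CSF. Csf3r was at 4419.8 to 4749.8 in untreated and 3674.9 to 4479.1 in LD M-MDSC. Among the 8 that rose, S100a8 was at 337.9 to 478.4 in untreated and 1477.4 to 9936.1 in LD M-MDSC. S100a9, also among the 8, was at 697.8 to 1021.0 and 4030.7 to 23934.0. Mpo was at 278.6 normalized counts or less in the PMN-MDSC libraries, whose marker sums were 518216.5 or more. In the LD M-MDSC libraries it was at 991.8 or more. Levels in sorted PMN-MDSC do not give those of less mature neutrophil cells. How far other cells in the M-MDSC gate contributed to the primary granule transcripts was not tested. In PMN-MDSC the neutrophil marker sum was 1.63-, 1.59- and 1.8-fold over the untreated mean in LD 001, LD 002 and LD 003, and Prtn3 was 9.08-, 2.12- and 4.77-fold.

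**Figure D5:**
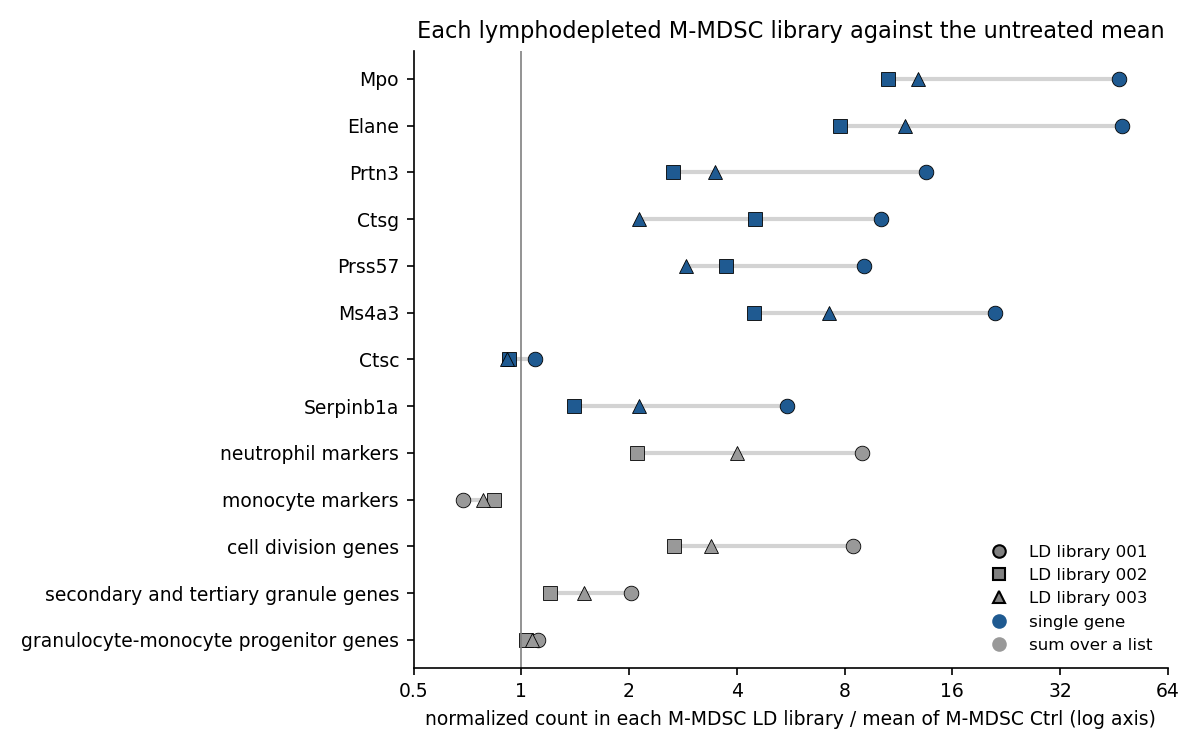
Level in each LD library of M-MDSC over the mean of the 3 untreated M-MDSC libraries, on a log axis, for the 8 genes (blue) and for sums over lists of markers (gray). Library 001 is the highest for the 8 genes and for the neutrophil, cell division and secondary granule sums, and the lowest for the monocyte sum.

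Basophils and mast cells store proteases of the same family next to Ctsg on chromosome 14, so their markers were checked. Mcpt8, the gene beside Ctsg, was at 5.1 normalized counts or less in every library, Cpa3 at 7.1 or less, and Cma1 and Mcpt4 at 1.6 or less. Of the 13 listed genes 1 could be tested, Hdc, which makes histamine and was at 14154.3 to 18051.8 in PMN-MDSC. It rose in M-MDSC (log2 2.45, limma adjusted p = 0.00151), from 20.8, 25.8 and 42.6 to 319.5, 79.0 and 159.6. Epx and Prg2, eosinophil granule genes, were at 2.2 or less, and of 2 eosinophil markers tested none passed in either LD comparison (0 and 1 at an unadjusted p under 0.05 in limma). Of the 3 tested B and plasma cell markers 1 fell in M-MDSC and 2 fell in PMN-MDSC, with none higher, against 0.468% and 8.51% of all genes tested that fell. The 1 tested T and NK cell marker did not pass in either. No erythroid marker reached the minimum, and their sum was 58.2 or less in every library. Of the 12 listed, 4 globin genes, Hba-a1, Hba-a2, Hbb-bs and Hbb-bt, were listed at 0 in every library. How the counting treated reads shared between globin copies is not given, so the low sum does not show that erythroid RNA was absent. Ms4a2, the neighbour of Ms4a3 and a mast cell gene, had too low a mean to be tested. It was at 0.0, 0.0 and 1.1 in untreated and at 23.9, 5.1 and 4.9 in LD M-MDSC, so LD 001 was highest here too, and at 19.6 or less in PMN-MDSC. The part of mast cells or basophils in the values of Ms4a3 and Ctsg was not tested. Without M-MDSC LD 001 the difference of Hdc was 1.95 (adjusted p = 0.00133).

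Other contents of the primary granule were taken from a list. Of 14 tested, 1 rose in LD M-MDSC, against 2.54% of all genes: Cd63, a tetraspanin of the granule membrane (log2 2.71 ± 0.52, SE; limma adjusted p = 0.00972), from 22.7, 10.5 and 16.3 to 304.3, 35.7 and 118.2. The difference of Cd63 was 1.98 without M-MDSC LD 001 (adjusted p = 0.0169). The median over the list was 0.07. In PMN-MDSC 3 rose, against 7.17% of all genes: Lyz2 (log2 1.43, adjusted p = 1.0e-04) and Lyz1 (1.81, 0.0068), which encode lysozymes, and Npc2 (0.41, 0.0262), a lysosomal sterol carrier, whose call was lost without PMN-MDSC LD 001 (0.31, 0.0674). Lyz2 went from 28365.0, 24714.6 and 26913.7 to 68318.8, 75823.9 and 70959.0. Its LD change differed between the populations (log2 -1.34, limma adjusted p = 0.00826). Many of these lysosomal genes are also expressed by macrophages and other cells.

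Of the 13 genes for sorting and storage of granule proteases, 1 rose in LD M-MDSC, against 2.54% of all genes tested. It was Gfi1, a transcription factor that is also counted among the regulators below, and none of the other 12 passed. None passed in PMN-MDSC (5 at an unadjusted p under 0.05 in limma), where 2 rose without LD 001. Srgn, the proteoglycan serglycin that retains elastase in the granule, was at 997.4 to 1462.1 in untreated and 1086.0 to 1356.8 in LD M-MDSC. Of the other serine protease inhibitors 5 of 13 could be tested and none passed in limma in either population (2 at an unadjusted p under 0.05 in each), while 3 fell in PMN-MDSC without LD 001. Slpi, the secretory leukocyte inhibitor and highest of the list, was at 170.6, 190.4 and 149.2 in untreated and 105.0, 112.1 and 117.2 in LD M-MDSC (log2 -0.6, adjusted p = 0.0578), against a log2 difference of 1.34 for Serpinb1a. Serpinb6a was at 57.2 to 63.6 and 83.2 to 117.2.

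Of the 14 tested regulators of primary granule genes, 5 rose in LD M-MDSC, against 2.54% of all genes tested: Cebpe, Gfi1, Egr1, Myb and Cebpb. Cebpe, a C/EBP factor of the promyelocyte to myelocyte step, went from 32.4, 26.8 and 30.3 to 313.7, 84.9 and 167.5 normalized counts (log2 2.43 ± 0.33, SE; limma adjusted p = 8.7e-04). Gfi1, a repressor needed for neutrophil differentiation, went from 1.9, 8.6 and 6.7 to 142.7, 39.1 and 54.2 (log2 3.5 ± 0.54, SE; adjusted p = 0.00239). Myb, which activates promyelocyte genes, went from 36.3, 23.9 and 42.1 to 325.3, 76.4 and 170.4 (log2 2.25, adjusted p = 0.00839), and Egr1, a factor of the monocyte lineage, rose by 1.66 (0.00352). Library LD 001 was the highest for these 4. Without it all 5 passed, at log2 1.97 for Cebpe (adjusted p = 8.1e-04), 2.96 for Gfi1 (0.00964), 1.75 for Myb (0.0266), 1.38 for Egr1 (0.013) and 0.49 for Cebpb (0.0217). In untreated mice 7 of the 14 were higher in PMN-MDSC and 6 in M-MDSC (limma), against 36.8% and 38.8% of all genes tested. The 7 held all 5 that rose, with Egr1 at a mean of 391.4 in PMN-MDSC against 18.6 in M-MDSC. Cebpa was at 970.8 to 1289.9 in untreated and 779.5 to 1255.8 in LD M-MDSC, and Runx1 at 1776.9 to 1974.7 in untreated and 1480.7 to 1596.6 in LD. In PMN-MDSC 1 of the 14 rose, Cebpe (log2 1.22, limma adjusted p = 0.0233), and 1 fell, Zeb2 (-1.07, 7.9e-05). Over all genes tested 7.17% rose there and 8.51% fell, so these counts are near the shares. Cebpe passed there without LD 001 (1.13, 0.0478), and its call was lost without Ctrl 001 (0.0594), Ctrl 002 (0.0554), Ctrl 003 (0.0776) or LD 003 (0.0677).

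The counts in the lists that follow stand beside all genes tested, of which 2.54% rose and 0.468% fell in M-MDSC. In PMN-MDSC 7.17% of all genes tested rose and 8.51% fell. Among 19 tested genes of granulocyte-monocyte progenitors, 5 rose in LD M-MDSC (Prom1, Fcnb, Myb, Kit and Erg) and 1, Nucb2, fell by 0.48 on the log2 scale. Prom1 rose by log2 3.07 (limma adjusted p = 0.00201), from 10.4, 15.3 and 13.5 to 300.6, 55.2 and 92.6, and Fcnb, ficolin B, by 2.96 (0.00504). Without LD 001 these 5 passed, Prom1 at 2.38 (adjusted p = 0.00154) and Fcnb at 2.34 (0.0148), and Nucb2 did not (-0.52, 0.0645). In PMN-MDSC 2 rose, Nucb2 and Clec12a, which is near the share of all genes, and 1 to 4 with 1 library left out. Of 18 tested secondary and tertiary granule genes, the later granule cargo, 8 rose and 1 fell in LD M-MDSC and 11 rose in PMN-MDSC, led in M-MDSC by Ltf, lactoferrin, at 515.6, 686.1 and 656.3 against 15333.0, 3294.5 and 7618.2. Without M-MDSC LD 001 the count there was again 8 and 1, with Ltf at log2 3.02 (adjusted p = 3.5e-05). The 11 of PMN-MDSC were 12 without LD 001, and 7, 6 and 7 without Ctrl 002, Ctrl 003 and LD 003. Of 22 cell division genes, 15 rose in LD M-MDSC, Prc1 (2.79), Ccna2 (3.3) and Hmmr (3.2) first by adjusted p, and none in PMN-MDSC (1 at an unadjusted p under 0.05 in limma). The 15 were 4 without M-MDSC LD 001, 5 without Ctrl 002, 6 without Ctrl 003 and 17 without both LD libraries numbered 001. Prc1 (2.33, adjusted p = 0.0125), Ccna2 (2.79, 0.0137) and Hmmr (2.8, 0.0225) were among the 4. Of 14 monocyte markers none passed in M-MDSC (2 at an unadjusted p under 0.05 in limma), and 2 rose and 2 fell in PMN-MDSC, or 2 and 6 without LD 001. How cell division or immaturity bears on the level of the primary granule transcripts was not tested.

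The likeness of each gene to the shared profile was measured as the root-mean-square difference, in log2 units over the 12 libraries, from the mean centred profile of Mpo, Elane, Prtn3 and Ctsg. These 4 define the profile and lay at 1.04, 0.9, 0.94 and 1.01. Of the other members Ctsc was nearest at 1.48 and Ms4a3 followed at 1.86, while Serpinb1a at 3.22 and Prss57 at 3.28 lay beyond the median of all tested genes, 2.64. The 10 most alike genes outside the list were Ifi205 (1.1), Nkg7 (1.16), Cfb (1.18), Mmp14 (1.19), Gpnmb (1.21), Ifi44 (1.22), Id3 (1.24), Akip1 (1.28), Hsph1 (1.28) and Sdc4 (1.3). Nkg7, a granule membrane protein of cytotoxic cells, is also on the list of granulocyte-monocyte progenitor genes. It was at 1.3, 3.8 and 2.2 in untreated and 85.5, 20.4 and 19.7 in LD M-MDSC, and at 8.1 or less in PMN-MDSC. Nkg7, Gpnmb, Ifi44 and Sdc4 passed the minimum on the mean only through the LD M-MDSC libraries, where the shared profile is also high. Their place among the most alike genes therefore adds no support. The likeness takes in both the difference between the populations and the LD changes, and these parts were not separated. Libraries of 1 population also share its sorting.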

How the data were processed

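The authors deposited 1 table of normalized counts, a signal per gene made by dividing reads by 1 size factor per library. Every value was a whole multiple of what 1 read is worth in its library (100.0% within 0.001), so reads were recovered, 8906045 to 16242926 per library. Reads carry no molecular identifiers, so intervals and limits of 3 reads cover counting error only. The submitters' processing notes name mm10, STAR 2.5.3a, HTSeq 0.6.1 and DESeq2 without their roles. Fold changes depend on these size factors.

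Values were tested with limma 3.58.1 (R 4.3.3) on log2(normalized count + 1), which understates changes of low genes, over the 11122 genes with a mean of at least 10. All 12 libraries were fitted with 1 mean per group and an empirical Bayes trend. Two-sided p-values were adjusted over all genes tested by Benjamini-Hochberg, and 0.05 was the threshold. Recovered reads were also tested with edgeR 4.0.16 and DESeq2 1.42.0. On data simulated from these libraries for LD against Ctrl in M-MDSC, limma recovered 83 of 112 genes changed by log2 1 and 88 of 88 changed by log2 2. Every simulated gene had the same fixed spread, only genes above a minimum untreated level were changed, and no library stood apart. These counts therefore do not give the power for genes that vary between LD libraries as Mpo and Elane did. Other pseudocounts, minimum means, TMM scaling, library weights, single populations, replicate blocks and each library left out were tried. The values of the other gene lists with libraries left out were added after seeing the data.

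The 8 genes were given by name; they and the gene lists were chosen with earlier results of these data known. Named from each other list were the genes with the smallest adjusted p in LD M-MDSC, from those past the threshold, or the highest by mean, plus genes a sentence needed. Promoters and positions are from RefSeq (GRCm38). Transcript lengths are those of each gene's longest transcript in the GENCODE annotation of that build that is matched to a RefSeq transcript. The labels give no batch. Python 3.11.15, pandas 2.3.3 and matplotlib 3.10.9 made the tables and figures.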

Additional observations from a re-analysis of the deposited data

How the results depend on the processing

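No direction of a called value reversed under any alternative run. Of the 8 genes, 5 were called in M-MDSC, 1 with no minimum on the mean and 3 with that population fitted alone, and 0 to 6 with 1 library left out. In PMN-MDSC 5 were called, and 3 to 5 with 1 library left out. For the difference of the LD changes 0 were called, 1 without both LD libraries numbered 001, and 0 to 1 with 1 library left out. The cause was not tested. Between the populations 7 were called in untreated mice and 8 in LD mice, 6 to 7 and 7 to 8 with 1 library left out. Over all genes tested, 335 changed in M-MDSC, 723 by DESeq2 and 976 with library weights, and 192 to 549 with 1 library left out. In PMN-MDSC 1745 changed, and 890 to 2162 with 1 library left out. The LD changes of 250 genes differed, of 125 with no minimum, 692 by DESeq2, 524 with library weights and 773 without both LD libraries numbered 001, and of 113 to 832 with 1 library left out. Few reads limit Mpo, Elane and Ctsg in PMN-MDSC and Prss57 in untreated M-MDSC.

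The labels do not say that a number marks a shared animal, and not every same-numbered pair correlated above 0.1: deviations of same-numbered libraries correlated between -0.05 and 0.0 across treatments. Between the populations they correlated at -0.04, 0.05 and 0.13 in untreated and at 0.21, 0.12 and 0.07 in LD libraries, where each LD library correlated best with its own number, a hint from the data and not from the design. With the replicate number as a block 6 of the 8 genes were called in M-MDSC, Serpinb1a among them (adjusted p = 0.0269). With a replicate block within treatment the difference of the LD changes was called for 1 of the 8, Ms4a3 (adjusted p = 0.022), and for 536 genes in all.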
